A study of Homo sapiens with 12 samples.

Results

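The genes of the mitochondrial ribosomal proteins were followed across 4 groups of HL60 cells, a human promyelocytic acute myeloid leukaemia line. They were taken by name: protein-coding entries whose symbol begins with MRPL or MRPS and a number, with a mean of at least 10 over the 12 libraries. Of 57820 entries in the deposited file, 78 had such a name and type, and 74 of these reached the mean, 45 named MRPL and 29 named MRPS. The 4 below it were both entries of MRPL30, the second entry of MRPS17, and MRPL53. The groups were TFEB-Dox, TFEB-Veh, EV-Dox and EV-Veh, with 3 libraries each, which the series design calls biologically independent experiments. The TFEB cells carried the lentiviral vector pRRL-TFEBS211A-puro, from which doxycycline induces TFEB with the S211A substitution, and the EV cells carried the empty pRRL-EV-puro. All 4 groups therefore share a transduced vector with a puromycin marker. Treatment lasted 48 h with doxycycline at 1 µg/ml, a protocol line that the labels repeat for the vehicle libraries too, so Dox and Veh follow the treatment label. Expression was measured by sequencing of total RNA from the whole cultures, in which fewer cells of a kind and less RNA per cell cannot be told apart.

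The mitochondrial ribosome translates the few proteins that mitochondrial DNA encodes, all of them membrane subunits of the respiratory chain and ATP synthase. Its ribosomal RNAs come from mitochondrial DNA, while every protein of its large (MRPL) and small (MRPS) subunits is encoded in the nucleus, made in the cytosol and imported. Part of the set descends from bacterial ribosomal proteins and part is specific to mitochondria. TFEB is a transcription factor of lysosome and autophagy genes, and the S211A form lacks a serine through which the kinase mTOR keeps it out of the nucleus. Doxycycline is a tetracycline, a class of antibiotics known to inhibit mitochondrial translation.

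TFEB itself was read at 13611, 12452 and 10679 in the TFEB-Dox libraries, against 168, 116 and 143 in TFEB-Veh, 140.1, 131 and 255 in EV-Dox and 108, 88.9 and 111 in EV-Veh, a log2 change of 6.43 ± 0.22 (SE, adjusted p = 3.36e-12 by limma) over TFEB-Veh. These are read numbers scaled so that the median nuclear gene with a mean of at least 200 is level across libraries, with the mitochondrial ribosomal protein genes left out of that set. This expressed-gene scale is used below unless another is named, because the totals of the deposited values still differed 5.56-fold between libraries. The libraries held 4474007 (EV-Dox 3) to 22488047 (EV-Veh 2) recovered reads, of which 13.3% to 33.1% were mitochondrial, lowest in the TFEB-Dox libraries. The share of reads on nuclear genes with a mean below 200 was 4.74% to 18.2%, highest in EV-Dox 3. All 8 promyelocyte markers chosen for the line were read in every library, and their summed level was 7789 to 9875 in TFEB-Dox, 73518 to 93948 in TFEB-Veh, 16537 to 33680 in EV-Dox and 66450 to 98415 in EV-Veh, with MPO as the largest part in every library. AZU1, PRTN3, CTSG, CD33 and ELANE were also lower in TFEB-Dox than in TFEB-Veh. SPI1 differed less (2205, 2464 and 2238 against 2685, 2898 and 2777), and CEBPA overlapped (15.5, 53.9 and 41.5 against 21.9, 31.5 and 38.2). ELANE was higher in TFEB-Dox (2285, 1444 and 1342) than in EV-Dox (1333, 1313 and 467). Summed lymphoid markers (6 of 6 read) were at 740.1 to 811 in TFEB-Dox, 195 to 314 in TFEB-Veh, 329 to 578 in EV-Dox and 157 to 217 in EV-Veh. NKG7 alone made up most of the TFEB-Dox sums, at 674, 767 and 680, against 93.6, 94.5 and 79.2 in TFEB-Veh. Each of the other lymphoid markers was at 24.4 or less in every TFEB-Dox library, and MS4A1 was lower there (23.7, 15.4 and 24.4) than in TFEB-Veh (77.5, 46.5 and 26.7). Summed erythroid (4 of 4) and epithelial or fibroblast markers (6 of 6) lay at 7.18 to 155 and at 92.0 to 1389 over the 12 libraries, and HBA1 was at 0 in 2 of them. The part of these differences in the results below was not tested.

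Promoter sequences were available for 65 of the 74 genes from RefSeq on GRCh38.p14, each from 250 bases before to 50 bases after the start. The set below holds a gene that rose with induction (MRPL52), one that rose although its name points to the wrong subunit (MRPS30), one that fell (MRPS27), the paralogs MRPS18B and MRPS18C, which moved in opposite directions, and MRPS34, which fell in EV-Dox cells and did not pass the test in TFEB-Dox against TFEB-Veh. They are printed 5′ to 3′ on the strand of the gene, with capitals on each match to the motifs AAGATGGC (YY1), CCGGAAGT (ETS factors), CACGTG (E-box) and CCAAT (NF-Y) on either strand. MRPL52 lies at chr14:22829637-22829936 (plus strand), MRPS30 at chr5:44808697-44808996 (plus), MRPS27 at chr5:72320191-72320490 (minus), MRPS18B at chr6:30617590-30617889 (plus), MRPS18C at chr4:83455808-83456107 (plus) and MRPS34 at chr16:1773085-1773384 (minus).
MRPL52: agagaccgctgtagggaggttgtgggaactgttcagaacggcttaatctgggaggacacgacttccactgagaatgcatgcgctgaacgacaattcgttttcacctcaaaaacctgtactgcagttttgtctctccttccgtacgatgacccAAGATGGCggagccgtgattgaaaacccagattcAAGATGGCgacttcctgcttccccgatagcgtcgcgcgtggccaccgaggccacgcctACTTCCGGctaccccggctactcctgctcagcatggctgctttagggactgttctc
MRPS30: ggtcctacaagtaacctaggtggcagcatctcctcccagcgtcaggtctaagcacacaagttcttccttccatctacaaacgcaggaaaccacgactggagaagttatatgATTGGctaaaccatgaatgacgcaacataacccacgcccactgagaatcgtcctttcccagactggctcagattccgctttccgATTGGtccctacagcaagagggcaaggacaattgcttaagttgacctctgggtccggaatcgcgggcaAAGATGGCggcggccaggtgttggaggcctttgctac
MRPS27: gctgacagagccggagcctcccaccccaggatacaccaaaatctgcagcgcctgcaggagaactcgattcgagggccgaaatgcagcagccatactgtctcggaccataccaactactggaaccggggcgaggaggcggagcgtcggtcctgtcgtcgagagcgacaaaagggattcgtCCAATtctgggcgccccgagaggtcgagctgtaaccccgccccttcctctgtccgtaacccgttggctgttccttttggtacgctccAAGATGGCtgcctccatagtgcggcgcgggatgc
MRPS18B: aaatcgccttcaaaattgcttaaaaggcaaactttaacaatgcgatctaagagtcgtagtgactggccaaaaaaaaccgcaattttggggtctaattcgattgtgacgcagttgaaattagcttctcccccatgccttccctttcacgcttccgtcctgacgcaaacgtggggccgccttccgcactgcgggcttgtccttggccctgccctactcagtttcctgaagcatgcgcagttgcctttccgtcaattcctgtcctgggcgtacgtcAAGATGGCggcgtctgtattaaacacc
MRPS18C: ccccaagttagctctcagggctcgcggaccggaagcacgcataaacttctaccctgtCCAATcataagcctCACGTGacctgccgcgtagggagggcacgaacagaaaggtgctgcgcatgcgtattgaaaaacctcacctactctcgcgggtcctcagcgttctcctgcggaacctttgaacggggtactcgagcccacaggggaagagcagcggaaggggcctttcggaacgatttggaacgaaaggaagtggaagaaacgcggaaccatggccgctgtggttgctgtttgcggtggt
MRPS34: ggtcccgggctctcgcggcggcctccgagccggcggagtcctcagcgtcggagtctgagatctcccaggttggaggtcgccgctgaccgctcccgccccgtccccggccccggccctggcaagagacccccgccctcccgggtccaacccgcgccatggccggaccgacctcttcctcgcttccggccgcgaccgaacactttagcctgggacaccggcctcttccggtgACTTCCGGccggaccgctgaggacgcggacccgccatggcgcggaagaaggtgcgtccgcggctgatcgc

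In these windows AAGATGGC began 98 and 64 bases before the start of MRPL52, and a reverse-strand CCGGAAGT began 6 bases before it. MRPS30, MRPS27 and MRPS18B each held AAGATGGC just after the start, at base 14, 17 and 24. These matches lie in transcribed sequence and contain the letters ATG, and whether they overlap the start codon was not tested. MRPS18C held no AAGATGGC and had an E-box at 179 bases before the start. A match describes letters in the window and not binding.

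Summed over the 74 genes, the family stood lower in EV-Dox cells than in the other groups on the expressed-gene scale. The sum was 26829, 27365 and 28826 in the TFEB-Dox libraries, against 26021, 28792 and 30142 in TFEB-Veh. It was 20541, 20913 and 20492 in EV-Dox, against 27232, 28763 and 28455 in EV-Veh. The EV-Dox values lay below all others, and the TFEB-Dox values lay within the range of TFEB-Veh. As a share of the reads on expressed nuclear genes the family made up 0.283, 0.279 and 0.299% in TFEB-Dox, against 0.368, 0.380 and 0.400% in TFEB-Veh. The same share was 0.286, 0.317 and 0.328% in EV-Dox, against 0.363, 0.383 and 0.400% in EV-Veh. By this measure both doxycycline groups lay below both vehicle groups without overlap, so the place of TFEB-Dox depends on whether a median gene or the total is held level. Assigned by structure rather than by name, 47 of the genes belong to the large subunit and 26 to the small, since MRPS30 and MRPS18A sit in the large subunit, and MRPS36 is a subunit of the oxoglutarate dehydrogenase complex and no ribosomal protein. The summed large-subunit genes were 1.87, 1.77 and 1.79 times the summed small-subunit genes in TFEB-Dox, against 1.86, 1.95 and 1.92 times in TFEB-Veh. That ratio was 1.94, 1.93 and 1.90 in EV-Dox, against 1.89, 1.88 and 1.81 in EV-Veh, so it spanned 1.77 to 1.95 over the 12 libraries. Taken by name instead, MRPL over MRPS gave 1.32, 1.38 and 1.41 in TFEB-Dox, against 1.57, 1.67 and 1.66 in TFEB-Veh, apart without overlap once MRPS30, MRPS18A and MRPS36 counted as small.

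**Figure D1:**
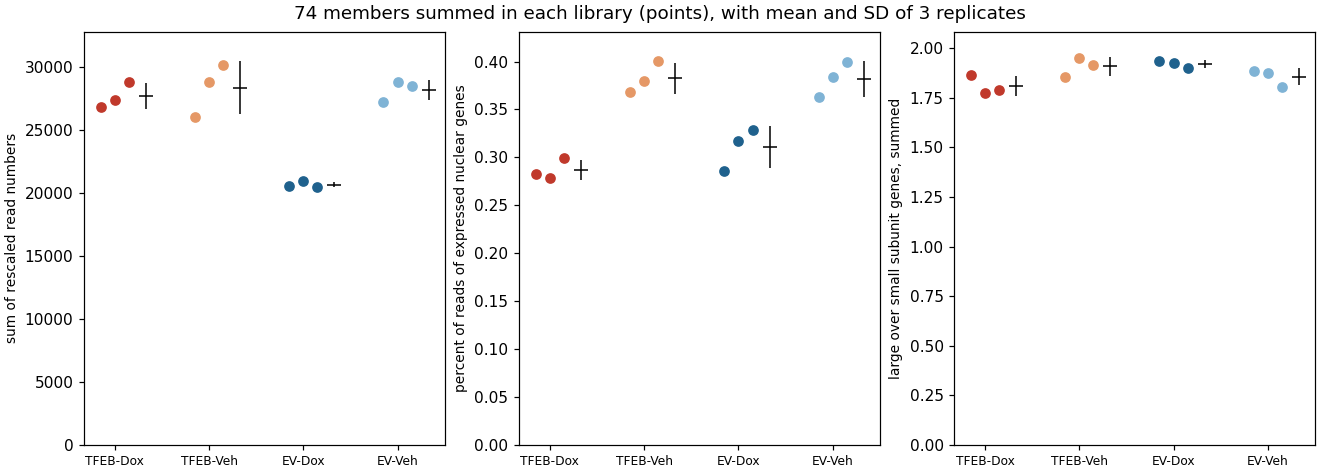
The 74 genes summed in each library: rescaled read number (left), percent of the reads on expressed nuclear genes (middle) and large-subunit over small-subunit genes (right), with points for libraries and dash and bar for mean and SD of 3 replicates. The EV-Dox sums of 20492 to 20913 lie below all others, and in the middle panel the TFEB-Dox shares of 0.279% to 0.299% lie below TFEB-Veh as well.

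On the expressed-gene scale, some genes of the family rose and others fell with induction of TFEB S211A. Against TFEB-Veh, 13 of the 74 genes rose and 18 fell (limma on log2(value + 1), Benjamini-Hochberg adjusted p under 0.05 over 23128 genes). Among all genes tested 14.4% were called higher and 20.7% lower, and among the 7238 expressed nuclear genes 34.5% and 33.3%. The calls among the ribosomal genes, 17.6% higher and 24.3% lower, were thus fewer than among expressed genes in both directions. Their changes were also narrower, with an interquartile range of 0.84 on the log2 scale against 1.48 for expressed genes, and 14.9% of them (11 genes) beyond 2-fold against 37.4%. The family includes 22 genes with a mean below 200, a level that the expressed nuclear genes leave out. Its 52 genes with a mean of at least 200 had an interquartile range of 0.98, with 13.5% beyond 2-fold. The share called was not worked out for those 52 alone. The median log2 change was -0.19 over the family, -0.72 over all genes tested and -0.02 over expressed nuclear genes. The family median turned positive with TMM factors, at 0.30, and on the deposited scale, at 0.55. On the deposited scale the median over expressed nuclear genes was 0.73, so the family stayed below it. There, 17 genes of the family were called higher and 1 lower (all genes tested 17.4% and 4.66%, expressed nuclear genes 31.6% and 3.52%). The genes called in the same direction under all 7 scalings tried were MRPL28, MRPL44, MRPL52, MRPS10, MRPS22, MRPS25 and MRPS30, all higher, and MRPS26, lower. The sign of the change was the same under all 7 scalings for 18 genes with a positive and 12 with a negative change, and differed for 44.

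**Figure D2:**
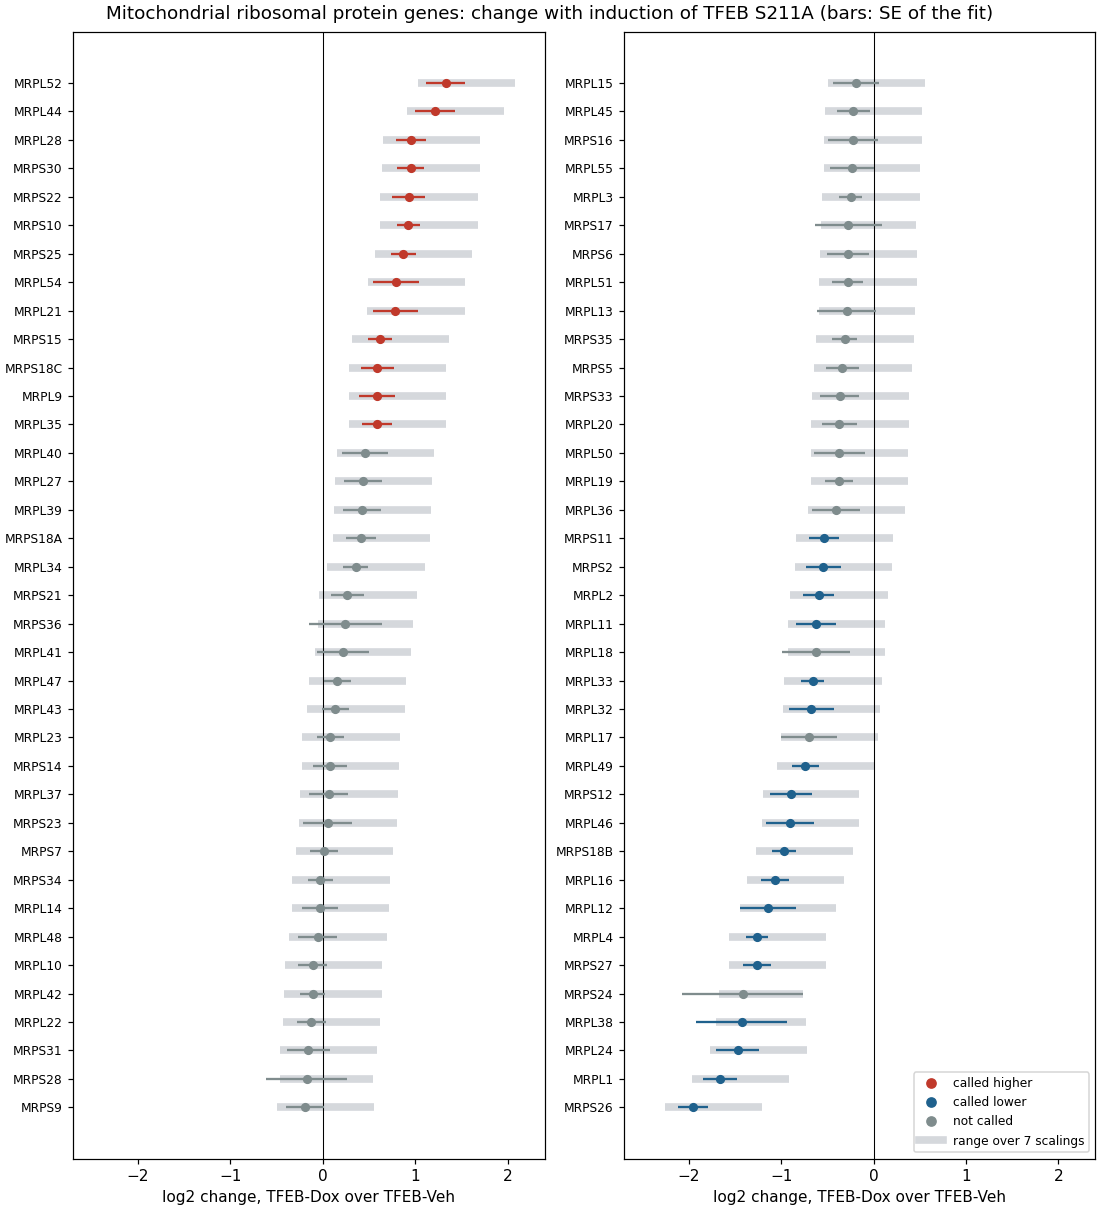
Log2 change of each of the 74 genes in TFEB-Dox over TFEB-Veh on the expressed-gene scale (points, coloured by call, with the SE of the fit) and the range of that change over 7 scalings (grey bars). The genes run from MRPL52 at 1.33 to MRPS26 at -1.96, and the grey bars cross 0 for 44 of them.

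Of the 13 genes that rose, 8 belong to the large subunit. MRPL52, a protein specific to the mitochondrial large subunit, was at 384, 605 and 605 in TFEB-Dox, against 206, 169 and 250.1 in TFEB-Veh, a log2 change of 1.33 ± 0.21 (SE, adjusted p = 8.14e-05 by limma). All 3 induced libraries lay above all other libraries of the study, which reached 262. MRPL44, which has the fold of a ribonuclease III and sits near the exit of the peptide tunnel, was at 899, 748 and 724 in TFEB-Dox, against 345, 402 and 279 in TFEB-Veh, a log2 change of 1.22 ± 0.22 (SE, adjusted p = 0.000256 by limma). MRPL28, a counterpart of a bacterial protein, was at 790.4, 750.1 and 716 in TFEB-Dox, against 352, 403 and 411 in TFEB-Veh, a log2 change of 0.95 ± 0.16 (SE, adjusted p = 0.000154 by limma). Its spread in the induced group was small, with a mean of 752 ± 37.4 against 389 ± 32.0 (SD, n = 3 each), and the groups did not overlap. MRPS30, a large-subunit protein despite its name, was at 1834, 1332 and 1289 in TFEB-Dox, against 765, 777 and 734 in TFEB-Veh, a log2 change of 0.95 ± 0.15 (SE, adjusted p = 6.63e-05 by limma). Its 3 induced libraries lay above all others, with the highest value in TFEB-Dox 1.

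Among the small-subunit genes that rose, MRPS22, a mitochondria-specific protein mutated in inherited mitochondrial disease, was at 554, 732 and 755 in TFEB-Dox, against 329, 302 and 446 in TFEB-Veh, a log2 change of 0.93 ± 0.18 (SE, adjusted p = 0.000655 by limma). MRPS10, the counterpart of a bacterial protein of the subunit head, was at 742, 730.0 and 761 in TFEB-Dox, against 352, 387 and 438 in TFEB-Veh, a log2 change of 0.93 ± 0.12 (SE, adjusted p = 9.74e-06 by limma). The induced libraries of MRPS10 differed by little, at 744 ± 15.5 (SD, n = 3), and stood apart from 393 ± 43.2 in TFEB-Veh. MRPS25, also specific to mitochondria, was at 1127, 1147 and 1233 in TFEB-Dox, against 592, 578 and 762 in TFEB-Veh, a log2 change of 0.87 ± 0.14 (SE, adjusted p = 7.12e-05 by limma). For all 3 genes the induced libraries lay above every library of the other groups. MRPL54, a mitochondria-specific large-subunit protein, averaged 141 ± 17.9 in TFEB-Dox and 81.8 ± 17.2 in TFEB-Veh (SD, n = 3 each), a log2 change of 0.79 ± 0.25 (SE, adjusted p = 0.0225 by limma). Its call was lost without TFEB-Dox 2, TFEB-Dox 3, TFEB-Veh 1 or TFEB-Veh 2, with an adjusted p of up to 0.105 by limma. The other 5 that rose were MRPL21, MRPS15, MRPS18C, MRPL9 and MRPL35, with log2 changes of 0.58 to 0.79.

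MRPS26, a mitochondria-specific protein of the small subunit, fell the furthest. It was at 90.6, 84.7 and 88.5 in TFEB-Dox, against 342, 347 and 345 in TFEB-Veh, a log2 change of -1.96 ± 0.16 (SE, adjusted p = 5.29e-08 by limma). The induced libraries lay below every other library, and the spread within each group was small, at 87.9 ± 3.02 against 345 ± 2.59 (SD, n = 3 each). MRPL1, the protein of the stalk at the exit site for transfer RNA, was at 70.2, 61.6 and 60.5 in TFEB-Dox, against 196, 187 and 234 in TFEB-Veh, a log2 change of -1.66 ± 0.19 (SE, adjusted p = 2.06e-06 by limma). MRPL24, whose bacterial counterpart begins large-subunit assembly, was at 90.6, 137 and 156 in TFEB-Dox, against 275, 352 and 433 in TFEB-Veh, a log2 change of -1.47 ± 0.23 (SE, adjusted p = 8.23e-05 by limma). Both sets of induced libraries lay below all others. MRPL38, a central protuberance protein, was read at 9.80, 8.88 and 10.8 in TFEB-Dox, against 35.1, 23.6 and 26.7 in TFEB-Veh, a log2 change of -1.43 ± 0.49 (SE, adjusted p = 0.032 by limma). The 6 libraries did not overlap, yet the call was lost on leaving out any 1 of them, with an adjusted p of up to 0.103 by limma, and 41.1% of its exonic bases are shared with other genes in GENCODE v29.

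MRPL4 and MRPS27 fell almost as far, and MRPS27 is named here after its values were seen. MRPL4, which lines the peptide exit tunnel, was at 768, 741 and 760.0 in TFEB-Dox, against 1678, 2074 and 1721 in TFEB-Veh, a log2 change of -1.26 ± 0.12 (SE, adjusted p = 3.94e-07 by limma). MRPS27, an RNA-binding pentatricopeptide repeat protein of the small subunit, was at 166, 189 and 201 in TFEB-Dox, against 412, 483 and 442 in TFEB-Veh, a log2 change of -1.26 ± 0.15 (SE, adjusted p = 3.47e-06 by limma). In both, the induced libraries lay far below the vehicle libraries, without overlap. Over the family 15 genes (20.3%) had all 3 TFEB-Dox values above all 3 TFEB-Veh values and 22 (29.7%) had them all below. All genes tested gave 16.7% and 44.8%, and expressed nuclear genes 37.6% and 38%.

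**Figure D3:**
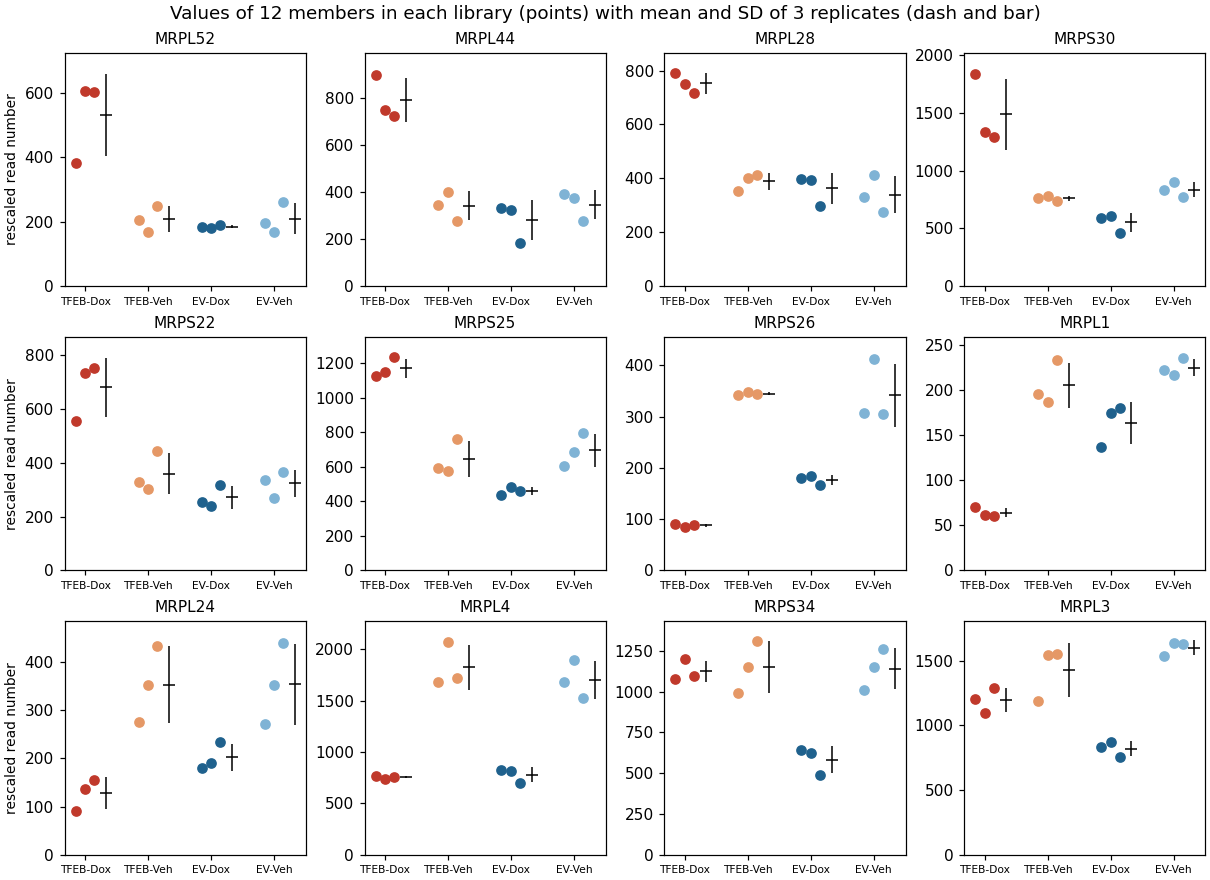
Rescaled read number of 12 of the genes in each library (points), with mean and SD of 3 replicates (dash and bar), the vertical axes starting at 0. MRPL52, MRPL44, MRPL28, MRPS30, MRPS22 and MRPS25 are highest in TFEB-Dox, MRPS26, MRPL1 and MRPL24 are lowest there, and MRPS34 and MRPL3 are lowest in EV-Dox.

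Both subunits, and in each the proteins with and without a bacterial counterpart, held genes that rose and genes that fell on the expressed-gene scale (all genes tested 14.4% higher and 20.7% lower, expressed nuclear genes 34.5% and 33.3%). Of the large-subunit proteins with a bacterial counterpart 4 rose and 9 fell of 29 (median log2 change -0.29), and of those specific to mitochondria 4 rose and 3 fell of 18 (median 0.10). Of the small-subunit proteins with a bacterial counterpart 3 rose and 3 fell of 16 (median -0.21), and of those specific to mitochondria 2 rose and 3 fell of 10 (median -0.24). Around the mouth of the exit tunnel 1 gene rose (MRPL44) and 1 fell (MRPL24) of 8, and at the central protuberance 2 fell of 7, MRPL38 and MRPL46. The median over all genes tested was -0.72 on that scale. On the deposited scale large-subunit proteins with a bacterial counterpart had 5 higher and 0 lower by limma (median 0.45) and those without 6 and 0 (median 0.85). Small-subunit proteins with a counterpart had 3 and 0 there (median 0.53) and those without 2 and 1 (median 0.51), where 17.4% of all genes tested were called higher and 4.66% lower. Expressed nuclear genes had 31.6% and 3.52% on that scale, with a median of 0.73. The exit tunnel then had 2 higher and 0 lower, the central protuberance 1 and 0, and the stalk 0 and 0 by limma. These lists, like the family, were tested over all genes and not on their own.

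The stalk on which translation factors are recruited is built of MRPL10, MRPL11 and MRPL12. MRPL12 was at 44.1, 38.5 and 46.0 in TFEB-Dox, against 108, 116 and 70.7 in TFEB-Veh, a log2 change of -1.15 ± 0.30 (SE, adjusted p = 0.00664 by limma), with 68.2% of its exonic bases shared with other genes in GENCODE v29. MRPL11 was at 314, 496 and 486 in TFEB-Dox, against 548, 606 and 833 in TFEB-Veh, a log2 change of -0.62 ± 0.21 (SE, adjusted p = 0.0322 by limma), which was lost without TFEB-Dox 1, TFEB-Veh 2 or TFEB-Veh 3 and turned to 0.13 on the deposited scale. MRPL10 was at 551, 549 and 504 in TFEB-Dox, against 633, 609 and 496 in TFEB-Veh, a log2 change of -0.11 ± 0.16 (SE, adjusted p = 0.559 by limma). The MRPL10 groups overlapped, and its sign turned on 3 of the other scalings. MRPS12, the decoding-centre protein that sets the accuracy of translation in bacteria, was at 67.0, 75.2 and 83.9 in TFEB-Dox, against 139, 137 and 146 in TFEB-Veh, and fell by 0.90 ± 0.22 (SE, adjusted p = 0.0046 by limma) on the log2 scale.

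The MRPS18 genes are 3 paralogs of a bacterial small-subunit protein, and their products sit in different places of the ribosome. MRPS18C, in the small subunit, was at 271, 258 and 238 in TFEB-Dox, against 187, 145 and 179 in TFEB-Veh, a log2 change of 0.59 ± 0.18 (SE, adjusted p = 0.016 by limma). MRPS18B, also in the small subunit, was at 216, 201 and 236 in TFEB-Dox, against 380.1, 454 and 451 in TFEB-Veh, a log2 change of -0.97 ± 0.13 (SE, adjusted p = 1.71e-05 by limma). The groups did not overlap for either gene, higher in TFEB-Dox for MRPS18C and lower for MRPS18B. MRPS18A, in the large subunit, was at 358, 261 and 301 in TFEB-Dox, against 234, 221 and 229 in TFEB-Veh, a log2 change of 0.41 ± 0.16 (SE, adjusted p = 0.0549 by limma) that missed the threshold. The call of MRPS18C was lost without TFEB-Dox 1, TFEB-Dox 2 or TFEB-Veh 2, and MRPS18A passed without TFEB-Dox 2 or EV-Dox 3. In GENCODE v29 MRPS18A and MRPS18C share 47.0% and 40.2% of their exonic bases with other genes. MRPS36, which bears the name but belongs to a Krebs cycle complex, was at 35.9, 48.0 and 59.6 in TFEB-Dox, against 36.5, 48.8 and 34.4 in TFEB-Veh, with overlapping groups and a log2 change of 0.24 ± 0.40 (SE, adjusted p = 0.603 by limma).

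With doxycycline in both groups, TFEB-Dox against EV-Dox, 25 of the 74 genes were higher and 11 lower by limma (all genes tested 14.2% and 57.4%, expressed nuclear genes 36.5% and 35.5%). The median log2 change was 0.17, against -1.25 over all genes tested and 0.01 over expressed nuclear genes. The family median was 1.53 on the deposited scale, where expressed nuclear genes had 1.38, and it turned to -0.17 with equal totals. Under all 7 scalings 12 were called higher: MRPL9, MRPL21, MRPL28, MRPL35, MRPL44, MRPL52, MRPS10, MRPS15, MRPS22, MRPS25, MRPS30 and MRPS34. MRPS30 was at 1834, 1332 and 1289 in TFEB-Dox, against 591, 604 and 458 in EV-Dox, a log2 change of 1.42 ± 0.15 (SE, adjusted p = 8.23e-07 by limma). MRPL44 was at 899, 748 and 724 in TFEB-Dox, against 334, 324 and 183 in EV-Dox, a log2 change of 1.54 ± 0.22 (SE, adjusted p = 2.39e-05 by limma). Both genes stood apart without overlap. MRPS26 and MRPL1 were again lower, with log2 changes of -1.0 ± 0.16 (SE, adjusted p = 9.23e-05 by limma) and -1.33 ± 0.19 (SE, adjusted p = 2.28e-05 by limma), though both calls held under only 5 of the 7 scalings and the changes ranged up to 0.36 and 0.03. No gene was called lower under all 7. MRPL4, lower in TFEB-Dox than in TFEB-Veh, gave -0.04 ± 0.12 (SE, adjusted p = 0.769 by limma) here, with values of 768, 741 and 760.0 in TFEB-Dox, against 825, 816 and 699 in EV-Dox. On the deposited scale 55 were called higher and 0 lower by limma (all genes tested 27.2% and 5.37%, expressed nuclear genes 55.7% and 0.691%), with 0 lower also at an unadjusted p under 0.05. On the recovered reads at the expressed-gene scale, edgeR and DESeq2 called 25 and 25 higher and 11 and 12 lower.

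Against EV-Veh, the empty-vector line with vehicle, TFEB-Dox had 15 genes higher and 19 lower by limma (all genes tested 15.9% and 16.2%, expressed nuclear genes 34.7% and 33.3%). The median log2 change of the family was -0.14, and with TMM factors it turned to 0.13. MRPL52 was at 384, 605 and 605 in TFEB-Dox, against 198, 168 and 262 in EV-Veh, a log2 change of 1.33 ± 0.21 (SE, adjusted p = 7.54e-05 by limma). It was the only gene of the family called higher here under all 7 scalings, and MRPL1, MRPL24 and MRPS26 were the ones called lower. The count of lower genes was 11 without TFEB-Dox 2, 12 without EV-Veh 2 and 12 without EV-Veh 3. The deposited scale gave 2 higher and 3 lower (all genes tested 12.2% and 8.51%, expressed nuclear genes 17.7% and 10%). Against each of the 3 controls, which are compared with the same TFEB-Dox libraries, 12 genes were higher and 9 lower. These are 16.2% and 12.2% of the family, beside 11.6% and 13.8% of all genes tested and 29.6% and 27.1% of expressed nuclear genes. The 12 were MRPL21, MRPL28, MRPL35, MRPL44, MRPL52, MRPL54, MRPS10, MRPS15, MRPS18C, MRPS22, MRPS25 and MRPS30. The 9 were MRPL1, MRPL16, MRPL24, MRPL46, MRPL49, MRPS12, MRPS18B, MRPS26 and MRPS27. By the deposited values only MRPL52 and MRPL54 were called higher against all 3 (all genes tested 10.7%, expressed nuclear genes 17.6%).

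With doxycycline but no TFEB insert, EV-Dox against EV-Veh, 22 of the 74 genes fell and 0 rose by limma. Among all genes tested 5.79% were called lower and 43.9% higher, and among expressed nuclear genes 17.4% and 20.8%. At an unadjusted p under 0.05 limma gave 31 lower and 0 higher, and on the recovered reads edgeR called 22 lower and 0 higher and DESeq2 24 lower and 0 higher. The median log2 change was -0.35 over the family, 1.05 over all genes tested and near 0 over expressed nuclear genes. It was negative under all 7 scalings, from -1.63 on the deposited scale to -0.06 when the family itself was held level. On the deposited scale expressed nuclear genes had a median of -1.29 as well. Holding the family level sets its median near 0, so the sign of that last value says nothing about the family. In all, 57 of the 74 genes (77.0%) had a change below 0, against 50.1% of the expressed nuclear genes. Of the 52 with a mean of at least 200, 46 had a change below 0.

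MRPS2, the counterpart of a bacterial small-subunit protein, was at 379.8, 346 and 241 in EV-Dox, against 700.2, 802 and 589 in EV-Veh, a log2 change of -1.13 ± 0.19 (SE, adjusted p = 0.00124 by limma). MRPL4 was at 825, 816 and 699 in EV-Dox, against 1679, 1892 and 1529 in EV-Veh, a log2 change of -1.12 ± 0.12 (SE, adjusted p = 5.42e-05 by limma). MRPS34, a mitochondria-specific protein mutated in Leigh syndrome, was at 640.2, 624 and 487 in EV-Dox, against 1007, 1153 and 1260.3 in EV-Veh, a log2 change of -0.97 ± 0.14 (SE, adjusted p = 0.000406 by limma). In all 3 genes the doxycycline libraries lay below the vehicle libraries without overlap. MRPL3, which reaches towards the peptidyl transferase centre, was at 833, 870.1 and 759 in EV-Dox, against 1535, 1639 and 1628 in EV-Veh, a log2 change of -0.96 ± 0.12 (SE, adjusted p = 0.000199 by limma). These genes, with MRPL24, MRPS26 and MRPS35, were the 7 called lower under all 7 scalings. Per kilobase of exonic bases in GENCODE v29, MRPS34 had the highest level in each group among the 72 genes found there (MRPL45 and MRPS21 were not) and averaged 1024 in TFEB-Dox, 1048 in TFEB-Veh, 532 in EV-Dox and 1039 in EV-Veh.

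By class, 10 of the 29 bacterial-type large-subunit genes fell in EV-Dox (median log2 change -0.44), 3 of the 18 mitochondria-specific ones (median -0.11), 3 of the 16 bacterial-type small-subunit genes (median -0.15) and 6 of the 10 mitochondria-specific ones (median -0.57), where 5.79% of all genes tested and 17.4% of expressed nuclear genes were called lower. The deposited scale gave 28, 16, 13 and 10 lower in the same classes, of 29, 18, 16 and 10 tested, where 23.3% of all genes tested and 50.8% of expressed nuclear genes were called lower. The change of other genes differed by level. The median log2 change in EV-Dox of the family was 0.72 at means of 10 to 50 (5 genes), against 1.57 for other nuclear genes. At 50 to 200 it was -0.27 (17 genes) against 0.86, and at 200 to 500 it was -0.31 (30 genes) against 0.15. At 500 to 1000 it was -0.39 (17 genes) against -0.02, and at 1000 or more -0.96 (5 genes) against -0.17. In every class of level the family median was thus below that of other nuclear genes.

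**Figure D4:**
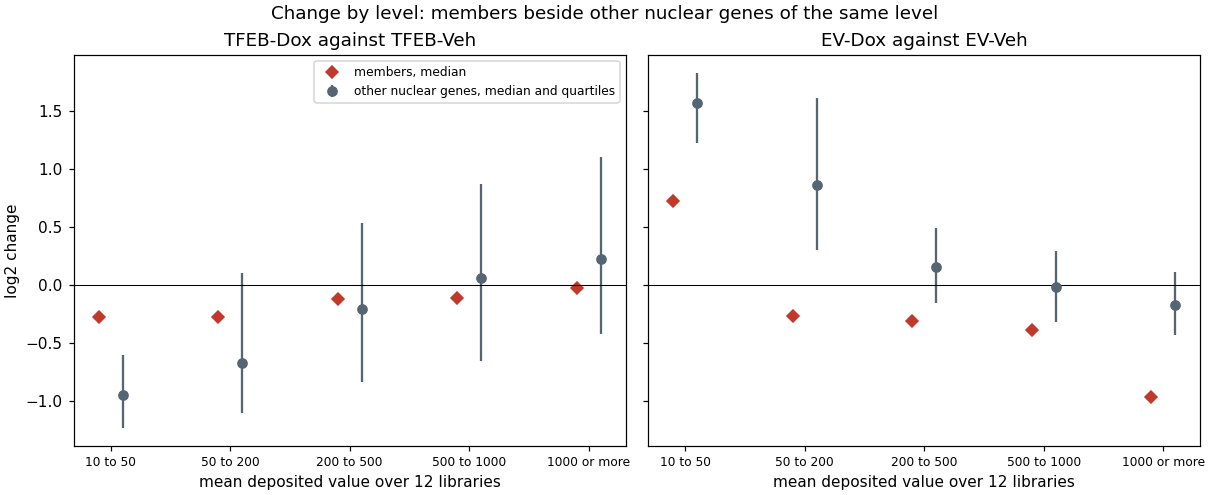
Median log2 change of the 74 genes (diamonds) and of other nuclear genes (circles, bars for quartiles) by mean deposited value, in TFEB-Dox against TFEB-Veh (left) and EV-Dox against EV-Veh (right). On the right the family median lies below the other genes in all 5 classes of level, from 0.72 against 1.57 at 10 to 50 to -0.96 against -0.17 at 1000 or more, while on the left it lies above them in the 3 lowest classes.

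The count of 22 in EV-Dox depended on which libraries entered the fit. It was 11 when only the EV libraries entered the fit, 7 without EV-Veh 2, the deepest library, and 9 without EV-Veh 2 and EV-Dox 3 together. Same-numbered EV-Dox and EV-Veh libraries deviated together (correlations 0.22, 0.41 and 0.72), although EV-Dox 1 correlated more closely with EV-Veh 2 (0.61) than with EV-Veh 1. With the replicate number as a block 34 genes were called lower, or 35 with the EV libraries alone. The deposited scale gave a count of 67 (all genes tested 23.3%, expressed nuclear genes 50.8%) with 0 higher (3.39% of all genes tested), and with the scale set on genes of a mean of at least 1000 it was 11. For that last scale, the block and the fits on fewer libraries, the share over all genes was not worked out.

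Without doxycycline no difference between the lines was detected in this family. In TFEB-Veh against EV-Veh limma called 0 of the 74 genes (all genes tested 0% in either direction), with 0 at an unadjusted p under 0.05. On the recovered reads edgeR and DESeq2 also called 0, in the family and among all genes tested. The log2 changes had a median of 0.02 on the expressed-gene scale and reached 0.65 (MRPS24) and -0.24 (MRPS2). MRPS24, read at 27.8, 15 and 14.3 in TFEB-Veh, against 8.80, 11.7 and 13.6 in EV-Veh, was the least abundant gene of the family. Both extremes are named after their values were seen. The median was -0.64 on the deposited scale, against -0.66 over expressed nuclear genes. There limma called 0 of the family and gave 3 lower at an unadjusted p under 0.05. The sign differed between the 7 scalings for 51 genes.

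The interaction asks whether doxycycline acted differently in the TFEB line than in the EV line. By limma 17 genes had a higher response in the TFEB line and 8 a lower one (all genes tested 11% and 57.8%, expressed nuclear genes 31.1% and 30%). The median interaction was 0.05 over the family (-0.39 to 2.08 over the 7 scalings) and -1.66 over all genes tested. The family median was 2.08 on the deposited scale, against 2.04 over expressed nuclear genes. There, 60 of the family were called higher and 0 lower by limma (0 lower also at an unadjusted p under 0.05). On that scale 29.2% of all genes tested were higher and 6.15% lower, and of expressed nuclear genes 62.4% and 0.0691%. Under all 7 scalings 10 were called higher: MRPL9, MRPL35, MRPL44, MRPL52, MRPS10, MRPS15, MRPS22, MRPS25, MRPS30 and MRPS34. MRPL44 had an interaction of 1.56 ± 0.31 (SE, adjusted p = 0.000983 by limma) on the log2 scale. Its change was 1.22 in the TFEB line and -0.34 in the EV line, the second not called. MRPS30 had an interaction of 1.55 ± 0.21 (SE, adjusted p = 3.05e-05 by limma), with 0.95 in the TFEB line and -0.60 in the EV line, both called and opposite in sign. MRPL52 had an interaction of 1.49 ± 0.30 (SE, adjusted p = 0.00114 by limma), and its change in the EV line was -0.16.

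MRPS34 and MRPL3 differed between the lines in another way. MRPS34 was at 1077, 1198 and 1096 in TFEB-Dox, against 991, 1151 and 1307 in TFEB-Veh, with overlapping groups, while it fell in EV-Dox against EV-Veh. Its interaction was 0.94 ± 0.20 (SE, adjusted p = 0.00162 by limma), and that of MRPL3 was 0.72 ± 0.18 (SE, adjusted p = 0.0045 by limma). MRPL4 fell in both lines, by 1.26 and 1.12 on the log2 scale, with an interaction of -0.14 ± 0.17 (SE, adjusted p = 0.473 by limma) (-0.59 to 1.89 over the 7 scalings). MRPS26 also fell in both, with an interaction of -1.02 ± 0.23 (SE, adjusted p = 0.0024 by limma) that was negative under 5 of the 7 scalings and 1.00 at its highest.

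The lowest interactions were those of MRPS24, MRPL38 and MRPL46, of which MRPS24 (4 to 26 reads per library) and MRPL38 (12 to 31) had few reads and MRPL46 had 79 to 291. MRPS24, the counterpart of a bacterial protein at the entry of the messenger RNA channel, was at 5.72, 2.37 and 15.3 in TFEB-Dox, against 27.8, 15 and 14.3 in TFEB-Veh. It was at 10.3, 28.8 and 48.7 in EV-Dox, against 8.80, 11.7 and 13.6 in EV-Veh, with an interaction of -2.49 ± 0.93 (SE, adjusted p = 0.0277 by limma). The call was lost in 6 of the 12 fits that left out a library, namely without TFEB-Dox 1 or 2, TFEB-Veh 1, EV-Dox 2 or 3 or EV-Veh 1, with an adjusted p of up to 0.0853 by limma. MRPL38 was at 23.5, 24.9 and 57.3 in EV-Dox, against 21.5, 13.9 and 20.4 in EV-Veh, and its interaction was -2.22 ± 0.69 (SE, adjusted p = 0.0131 by limma). MRPL46, another central protuberance protein, was at 80.0, 64.5 and 71.3 in TFEB-Dox, against 145, 138 and 123 in TFEB-Veh. It was at 117, 129.7 and 246 in EV-Dox, against 119, 131 and 118 in EV-Veh, and its interaction of -1.24 ± 0.37 (SE, adjusted p = 0.0103 by limma) turned to 0.78 on the deposited scale. All 3 were highest in EV-Dox 3, the shallowest library. Without it the interactions were -2.01 for MRPS24 (adjusted p = 0.0617 by limma), -1.81 for MRPL38 (adjusted p = 0.0257) and -0.91 for MRPL46 (adjusted p = 0.0166).

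Across the 74 genes the changes in both lines, which share no libraries, were weakly related, with a Pearson r of 0.09 and a Spearman rho of 0.18 over genes, against 0.44 and 0.31 over the 7238 expressed nuclear genes. Genes are not independent replicates, and the changes share the scaling. In 38 of the genes both changes were below 0 and in 9 both were above. In 19 the TFEB line was above 0 and the EV line below, and in 8 the reverse held.

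**Figure D5:**
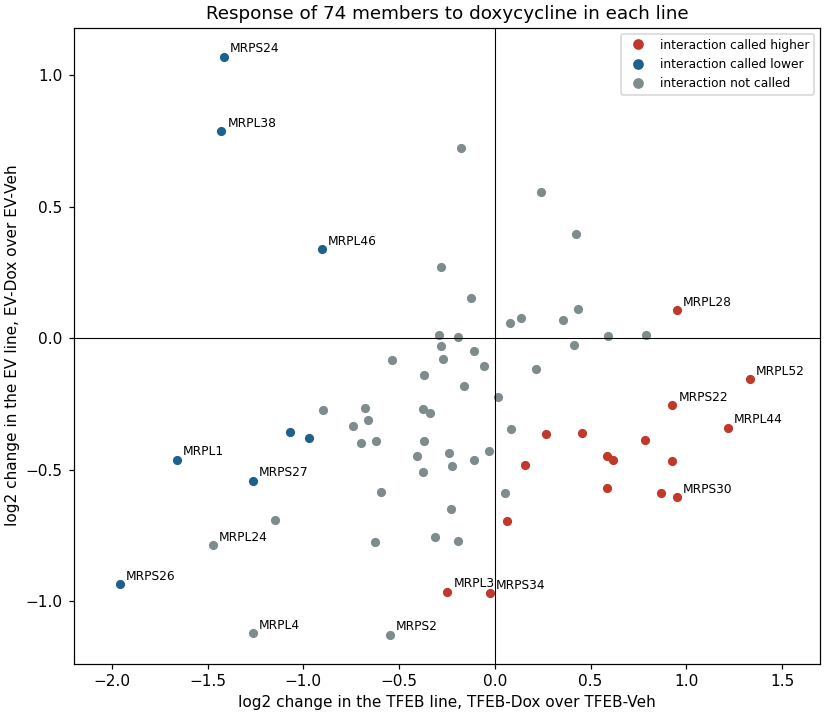
Log2 change with doxycycline in the TFEB line (horizontal, TFEB-Dox over TFEB-Veh) and in the EV line (vertical, EV-Dox over EV-Veh) for each of the 74 genes, coloured by the call of the interaction. MRPL52, MRPL44, MRPS22 and MRPS30 lie to the right and below 0, MRPS26, MRPL1 and MRPL24 lie to the left and below 0, and MRPS34 and MRPL3 lie near the bottom close to the vertical line at 0.

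Ratios between family members within a library do not depend on scaling. The pairs were chosen after the changes were seen and are given as a description. MRPL52 over MRPS26 was 4.23, 7.15 and 6.84 in TFEB-Dox, 0.603, 0.488 and 0.726 in TFEB-Veh, 1.03, 0.972 and 1.14 in EV-Dox and 0.641, 0.407 and 0.857 in EV-Veh. MRPL44 over MRPL1 was 12.8, 12.2 and 12 in TFEB-Dox, 1.76, 2.15 and 1.19 in TFEB-Veh, 2.43, 1.86 and 1.02 in EV-Dox and 1.76, 1.72 and 1.17 in EV-Veh. MRPS30 over MRPL4 was 2.39, 1.80 and 1.7 in TFEB-Dox, 0.456, 0.375 and 0.427 in TFEB-Veh, 0.716, 0.740 and 0.656 in EV-Dox and 0.497, 0.475 and 0.503 in EV-Veh. In each of these the 3 induced libraries lay above the 9 others. Within the small subunit, MRPS25 over MRPS27 was 6.80, 6.08 and 6.13 in TFEB-Dox, 1.44, 1.20 and 1.72 in TFEB-Veh, 1.19, 1.43 and 1.72 in EV-Dox and 1.38, 1.38 and 1.69 in EV-Veh. Between paralogs, MRPS18C over MRPS18B was 1.25, 1.28 and 1.01 in TFEB-Dox, 0.492, 0.319 and 0.398 in TFEB-Veh, 0.545, 0.542 and 0.627 in EV-Dox and 0.460, 0.368 and 0.488 in EV-Veh. MRPS34 over MRPL43 was 3.76, 3.52 and 3.12 in TFEB-Dox, 3.63, 3.47 and 4.59 in TFEB-Veh, 2.38, 2.11 and 1.52 in EV-Dox and 3.81, 3.68 and 4.82 in EV-Veh. The ratios over MRPS27 and MRPS18B were highest in TFEB-Dox, and the ratio over MRPL43 was lowest in EV-Dox. A ratio shows that the genes of a pair changed unequally and not which of them changed.

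Some proteins of the same ribosome have genes with other names. On the expressed-gene scale 2 of 7 such genes rose and 3 fell in TFEB-Dox against TFEB-Veh (median log2 change -0.24), and 5 fell in EV-Dox against EV-Veh. All genes tested gave 14.4% higher and 20.7% lower in the TFEB line and 5.79% lower in the EV line, and expressed nuclear genes 34.5%, 33.3% and 17.4%. The deposited scale gave 2 higher and 0 lower by limma (median 0.51) in the TFEB line and 7 lower in the EV line. On that scale all genes tested gave 17.4% higher and 4.66% lower in the TFEB line and 23.3% lower in the EV line. Expressed nuclear genes gave 31.6%, 3.52% and 50.8%. ICT1, a peptidyl-tRNA hydrolase built into the large subunit, was at 576, 529 and 592 in TFEB-Dox, against 364, 362 and 369 in TFEB-Veh, a log2 change of 0.63 ± 0.13 (SE, adjusted p = 0.00113 by limma). PTCD3, a small-subunit pentatricopeptide repeat protein, gave -0.88 ± 0.13 (SE, adjusted p = 2.83e-05 by limma). GADD45GIP1, of the large subunit, gave -0.72 ± 0.23 (SE, adjusted p = 0.0216 by limma), a call that reached an adjusted p of 0.115 by limma without TFEB-Veh 3 and was also lost without TFEB-Dox 1, and a change of 0.03 on the deposited scale.

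The factors that assemble the ribosome fell where they changed, on the expressed-gene scale. Of 23 such genes 15 fell in TFEB-Dox against TFEB-Veh and the other 8 did not pass the test (median log2 change -0.69, against -0.02 over expressed nuclear genes, of which 33.3% were called lower, as were 20.7% of all genes tested). On the deposited scale 1 was higher and 1 lower, with a median of 0.06. All genes tested gave 17.4% and 4.66% on that scale, and expressed nuclear genes 31.6% and 3.52% with a median of 0.73. MRM1, which methylates the large ribosomal RNA, was at 21.2, 17.2 and 19 in TFEB-Dox, against 121, 87.4 and 95.5 in TFEB-Veh, a log2 change of -2.34 ± 0.31 (SE, adjusted p = 1.2e-05 by limma). RBFA, a small-subunit maturation factor, was at 143, 159 and 198 in TFEB-Dox, against 531, 565 and 585 in TFEB-Veh, a log2 change of -1.76 ± 0.18 (SE, adjusted p = 7.64e-07 by limma). The groups did not overlap for either gene. MTG1, a GTPase of large-subunit assembly, gave -1.41 ± 0.35 (SE, adjusted p = 0.0039 by limma). In EV-Dox against EV-Veh 4 of the 23 fell (median -0.19), beside 5.79% of all genes tested and 17.4% of expressed nuclear genes. In the interaction 10 were lower (median -0.40, with 57.8% of all genes tested and 30% of expressed nuclear genes called lower). The deposited scale gave 20 lower in EV-Dox (median -1.47), beside 23.3% of all genes tested and 50.8% of expressed nuclear genes (median -1.29). In the interaction that scale gave 12 higher and 0 lower by limma (median 1.63). Of all genes tested 29.2% were higher there and 6.15% lower, and of expressed nuclear genes 62.4% and 0.0691% (median 2.04).

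Of 16 translation factors and related genes 2 rose and 4 fell in TFEB-Dox against TFEB-Veh on the expressed-gene scale (all genes tested 14.4% higher and 20.7% lower, expressed nuclear genes 34.5% and 33.3%). By limma on the deposited scale 4 were higher and 0 lower (median 0.70). That scale gave 17.4% higher and 4.66% lower for all genes tested, and 31.6% and 3.52% for expressed nuclear genes (median 0.73). GUF1, the mitochondrial counterpart of a bacterial elongation factor, was at 5011, 3947 and 3582 in TFEB-Dox, against 1425, 1657 and 1634 in TFEB-Veh, a log2 change of 1.40 ± 0.13 (SE, adjusted p = 3.05e-07 by limma), and GFM1, which moves the ribosome along, gave 1.02 ± 0.19 (SE, adjusted p = 0.000428 by limma). LRPPRC, which stabilises mitochondrial messenger RNAs, was at 1867, 1843 and 1960.4 in TFEB-Dox, against 3675, 5083 and 4552 in TFEB-Veh, a log2 change of -1.22 ± 0.14 (SE, adjusted p = 2.22e-06 by limma). In the EV line GUF1 fell with doxycycline, by a log2 change of -0.58 ± 0.13 (SE, adjusted p = 0.0084 by limma), and its interaction was 1.98 ± 0.19 (SE, adjusted p = 9.89e-07 by limma). LRPPRC fell in both lines, with -1.05 ± 0.14 (SE, adjusted p = 0.000216 by limma) in the EV line. Of 20 mitochondrial aminoacyl-tRNA synthetases 1 rose and 10 fell on the expressed-gene scale, beside 14.4% and 20.7% of all genes tested, and by limma 0 were called either way on the deposited scale. The one that rose was CARS2, at 0.50 ± 0.14 (SE, adjusted p = 0.00829 by limma). The falls were led by MARS2 at -1.37 ± 0.23 (SE, adjusted p = 0.000133 by limma), SARS2 at -1.28 ± 0.40 (SE, adjusted p = 0.019 by limma) and VARS2 at -0.98 ± 0.18 (SE, adjusted p = 0.000398 by limma). The deposited median over the synthetases was 0.14, and SARS2 lost its call without TFEB-Dox 3, TFEB-Veh 1 or TFEB-Veh 2 (adjusted p up to 0.0863 by limma). The mitochondrial ribosomal RNAs did not pass the test, with -0.18 ± 0.19 (SE, adjusted p = 0.44 by limma) for MT-RNR1 and -0.50 ± 0.44 (SE, adjusted p = 0.339 by limma) for MT-RNR2.

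Of 10 genes known to regulate mitochondrial biogenesis 1 rose and 5 fell in TFEB-Dox against TFEB-Veh (median -0.42), beside 14.4% and 20.7% of all genes tested and 34.5% and 33.3% of expressed nuclear genes. The deposited scale gave 1 higher and 1 lower, with a median of 0.33. All genes tested gave 17.4% and 4.66% on that scale, and expressed nuclear genes 31.6% and 3.52% with a median of 0.73. PPARGC1A, a coactivator of mitochondrial genes, was at 739.8, 948 and 834 in TFEB-Dox, against 130.1, 61.4 and 55.4 in TFEB-Veh, a log2 change of 3.44 ± 0.51 (SE, adjusted p = 4.14e-05 by limma). In the EV line PPARGC1A was at 53.6, 102 and 243 in EV-Dox, against 34.2, 15.3 and 66.1 in EV-Veh, with overlapping groups. It rose there too with doxycycline, by a log2 change of 1.72, the highest of the 10 genes in that comparison. Of the 10, limma called 1 higher and 3 lower there, beside 43.9% and 5.79% of all genes tested and 20.8% and 17.4% of expressed nuclear genes. MYC, a transcription factor that raises ribosome genes in many cells, was at 2461, 3878 and 3787 in TFEB-Dox, against 14832, 20246 and 25275 in TFEB-Veh, a log2 change of -2.57 ± 0.23 (SE, adjusted p = 1.14e-07 by limma). It was at 4496, 5669.9 and 5882 in EV-Dox, against 17249, 21775 and 24514 in EV-Veh, a log2 change of -1.98 ± 0.23 (SE, adjusted p = 7.67e-05 by limma). The MYC groups did not overlap in either line. PPARGC1B, a relative of PPARGC1A, gave -1.13 ± 0.13 (SE, adjusted p = 3.37e-06 by limma) in TFEB-Dox against TFEB-Veh. Their part in the changes of the ribosomal genes was not tested.

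Motif matches in the promoters, on either strand, were counted over the 65 genes with a sequence and over all 35116 promoters of the RefSeq table. AAGATGGC, the core of the YY1 motif, was in 20 of the 65 (30.8%), against 2.89% of all promoters. The counts include matches after the start, in transcribed sequence, and overlap with start codons was not tested. It was in 3 of 11 promoters of genes that rose in TFEB-Dox against TFEB-Veh, in 6 of 17 of genes that fell and in 11 of 37 of those not called. CCGGAAGT was in 10 (15.4%), against 4.14% of all promoters. CACGTG, the E-box within the longer palindrome (GT before it and AC after it) that TFEB and its relatives bind, was in 6 (9.23%), against 7.26%, with 1 in a gene that rose, 1 in a gene that fell and 4 in genes not called. The palindrome itself was in 0 of the 65 and in 0.353% of all promoters. The NRF1 motif, GCGC and GCGC joined by AT, was in 1 (1.54%), against 1.24%, and CCAAT was in 20 (30.8%), against 34.6%. CACGTG matches include those inside the palindrome. No match says only that these letters are not in this window.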

How the data were processed

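RNA-seq of total RNA from HL60 cells was analysed in 12 libraries, grouped by the vector and treatment given in the labels. The series design calls the 3 libraries of a group biologically independent experiments. The NuGEN Ovation kit for FFPE human RNA made the libraries, per the labels' protocols. The submitters' processing notes name STAR 2.5.3a and HTSeq 0.6.1. Build, annotation and strand setting were not given in the sources used, so reads shared with overlapping, antisense or pseudogene entries cannot be told apart. The deposited values are a signal: gene reads divided, by the authors, by 1 factor per library. Whole reads were recovered for 100% of the values (tolerance 0.01), with each read worth 0.803 to 1.22. These factors left the library totals 5.56-fold apart, so the values were rescaled to the median ratio of the expressed nuclear genes, 7238 genes whose mean reached 200 (7236 usable), with the family left out, by factors up to 7.06-fold apart. The unit differed from a count table, so limma 3.58.1 (R 4.3.3) was the test, on log2(value + 1), with a variance trend, 4 group means and 23128 genes of mean at least 10. Fold changes on that scale understate the change of low genes. Each call is two-sided at a Benjamini-Hochberg adjusted p of 0.05. The script was tested on simulated data. Alternatives were 6 other scalings, other filters and pseudocounts, the replicate block, each library left out, and, for the recovered reads, DESeq2 1.42.0 and edgeR 4.0.16.

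A gene of the family had 4 to 4215 reads per library, median 283.5, and the SE of its log2 change in TFEB-Dox against TFEB-Veh was 0.12 to 0.65, median 0.19. Named genes were the largest changes called on both the expressed-gene and deposited scales in TFEB-Dox against TFEB-Veh (up to 8 each way, filled to 4 from the expressed-gene scale), up to 4 each way in EV-Dox against EV-Veh, up to 3 each way in the interaction, the stalk proteins, MRPS12, the MRPS18 paralogs and MRPS36 whatever their result, and up to 3 of each other list. The genes of the family, the lists and the rules were chosen with earlier results of these data known. Same-numbered libraries had a median correlation of deviations of 0.35 (-0.22 to 0.72, 18 pairs), so the numbers were not taken to pair the whole design. Every pair was above 0.1 in EV-Dox with EV-Veh and in TFEB-Veh with EV-Veh, taken from the data and not the labels.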

Additional observations from a re-analysis of the deposited data

Results flagged for a closer look

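For 15 of the named genes the response to doxycycline differed between the TFEB and EV lines by the interaction term of limma (adjusted p under 0.05 over 23128 genes). The interaction, the log2 change in the TFEB line minus that in the EV line, was positive for MRPL44 (1.56), MRPS30 (1.55), MRPL52 (1.49), MRPS25 (1.46), MRPS10 (1.39), MRPS22 (1.18), MRPS34 (0.94), MRPL28 (0.85) and MRPL3 (0.72). It was negative for MRPS24 (-2.49), MRPL38 (-2.22), MRPL46 (-1.24), MRPL1 (-1.20), MRPS26 (-1.02) and MRPS18B (-0.59). Of these, MRPL44, MRPS30, MRPL52, MRPS25, MRPS10, MRPS22 and MRPS34 were called under all 7 scalings. Among the negative ones, the interaction turned positive at the upper end of its range over the 7 scalings for MRPL46 (0.78), MRPL1 (0.82), MRPS26 (1.00) and MRPS18B (1.44), and stayed below 0 for MRPS24 and MRPL38. That of MRPS24 did not pass without EV-Dox 3 (adjusted p = 0.0617 by limma).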

How the results depend on the processing

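Counts are of the 74 genes called, with higher given before lower, and the cause of each difference was not tested. Shares called over all genes by limma were worked out only for the full fit on the expressed-gene and deposited scales. Between these 2 scales the expressed nuclear genes called lower in EV-Dox went from 17.4% to 50.8%. Counts under the other settings below, left-out libraries and block included, have no such share beside them and do not set the family apart from other genes. On the deposited values, TFEB-Dox had 1 lower against TFEB-Veh, 55 and 0 against EV-Dox, 2 and 3 against EV-Veh, and 2 and 0 against each of the 3 controls. EV-Dox against EV-Veh had 67 lower there, and the interaction had 60 and 0. With TMM factors the same comparisons gave 3 lower, 56 and 0, 5 lower against EV-Veh, 0 lower against each control, 55 lower in EV-Dox, and 50 and 0 in the interaction. With equal totals TFEB-Dox had 7 and 35 against TFEB-Veh, 13 and 20 against EV-Dox, 7 and 29 against EV-Veh, and 7 and 16 against each control, with 15 lower in the interaction. With equal upper quartiles 6 were lower against EV-Dox, 4 lower against each control and 41 lower in EV-Dox, and the interaction had 29 and 5. Scaled to the family's own median, 16 were higher against EV-Dox, 11 lower against EV-Veh, and EV-Dox had 6 and 7. With a scaling set of mean at least 1000 TFEB-Dox had 7 higher against TFEB-Veh, 12 and 21 against EV-Dox, 8 higher against EV-Veh, and 7 and 14 against each control, EV-Dox had 1 and 11, and the interaction 10 and 19. With only genes of mean at least 200, 7 were lower against EV-Dox and 4 in the interaction. Without a filter 12 were lower against EV-Veh, without a variance trend 1 was higher in EV-Dox, and with only the EV groups in the fit 11 were lower there. The deposited scale reversed the interaction of MRPL46 (0.78) and the changes in TFEB-Dox against TFEB-Veh of MRPL10 (0.64), MRPL11 (0.13) and GADD45GIP1 (0.026). Among others, the interaction turned positive at its highest over the 7 scalings for MRPL1 (0.82), MRPS26 (1.00), MRPS18B (1.44) and MRPL4 (1.89). MRPL10 also reversed with TMM (0.39) and the family's median (0.027), and MRPS36 with equal totals (-0.057) and the set of mean at least 1000 (-0.0076).

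With 1 library left out, TFEB-Dox had 9 to 16 higher and 13 to 19 lower against TFEB-Veh, 21 to 26 and 8 to 12 against EV-Dox, 10 to 17 and 11 to 19 against EV-Veh, and 9 to 15 and 6 to 10 against each control. EV-Dox had 0 to 1 higher and 7 to 25 lower, with 7 without EV-Veh 2 and 1 higher without EV-Dox 1, and the interaction 14 to 19 and 7 to 9. Without the shallowest and deepest libraries together, chosen after seeing the data, 9 were lower in EV-Dox.

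With the replicate number as a block, 34 genes were lower in EV-Dox against EV-Veh, or 35 with those groups alone, which was added after seeing the data. The block changed no other count of genes by more than 1.5 times.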
